A study of Mus musculus with 11 samples.

Results

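Whether the liver's response to carbon tetrachloride (CCl4) differed between wild-type and Hmgb2-/- mice was examined as an interaction, the response of the knockout less the response of the wild type. A response is the log2 difference of CCl4 less oil within a genotype, and a positive interaction means that the response was higher in the knockout. The contrast takes all 4 groups of the study, 11 of 11 libraries. All mice were C57BL/6 and the tissue was whole liver. Wild-type liver after oil gave 3 libraries (WT_Oil 1, 2 and 3) and after CCl4 another 3 (WT_CCL4 4, 5 and 6). Hmgb2-/- liver gave 2 libraries after oil (KO_Oil 11 and 12) and 3 after CCl4 (KO_CCL4 24, 25 and 15), and values below are given in this order. Sex, age, CCl4 dose, number of treatments, hour of collection and the deleted part of Hmgb2 are not stated in the sources used here. Nothing in the labels ties each library to a mouse of its own, so the p-values rest on the spread among these libraries, which could be technical in part.

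CCl4 is made toxic in the hepatocytes around the central vein, chiefly by the cytochrome P450 enzyme Cyp2e1. Injured liver then goes through inflammation, division of surviving cells, matrix deposition by stellate cells and repair, phases that follow each other over days. Hmgb2 encodes a high-mobility group box protein that binds and bends DNA in chromatin and is most abundant in dividing cells. An interaction does not say which genotype or treatment departs from the rest. The levels in all 4 groups are therefore given for the genes that passed, except Mir8114, and for part of the other genes named. They are in CPM, read counts scaled to a common library size after normalisation by the trimmed mean of M-values (TMM). Where only an interaction is given, the text does not show which group departs.

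Between 7306082 (KO_Oil 11) and 14116886 (WT_CCL4 4) counts fell on the genes of the table, and both KO_Oil libraries were the shallowest. Hmgb2 (ENSMUSG00000054717, chromosome 8, 57511907 to 57515999, plus strand of mm10) had 1.93, 1.98 and 2.63 CPM after oil and 7.42, 3.14 and 6.69 CPM after CCl4 in wild type, and 0 and 0.951 CPM after oil and 0.387, 0.412 and 0.402 CPM after CCl4 in the knockout. Every knockout library lay below every wild-type library, and the 0 reads of KO_Oil 11 allow up to 0.431 CPM, for counting error only. The hepatocyte genes Ttr (3823 to 5381 CPM), Cps1 (5098 to 15055 CPM) and Hnf4a (569 to 1102 CPM) were abundant in all 11 libraries. In mean log2 level, WT_CCL4 5 stood below WT_CCL4 4 and 6 in genes of mitosis, matrix and infiltrating macrophages. It did not in neutrophil genes (2.16 against 1.71 and 1.79, less WT_Oil) or NRF2 genes (0.71 against 0.47 and 0.69). KO_CCL4 24 and 25, titled with an E in place of the S found in the other 9 titles, stood apart from KO_CCL4 15 in several gene groups. Most gene group counts below are followed by their range when 1 library was left out, with the libraries at its ends. Across 11029 genes, the deviation from the group's other libraries correlated with the genes' GC content most in WT_Oil 1 (Spearman's rho 0.613) and least in WT_CCL4 6 (-0.00254), a description over genes of the same libraries. Its part in the results was not tested beyond an offset for GC content and length. Under that offset 50 genes passed, with 16 of the 17 that passed without it.

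Of 16866 genes tested, 17 had a response that differed between the genotypes (0.101% of the genes; edgeR's quasi-likelihood test with Benjamini-Hochberg adjustment, adjusted p below 0.05). The response was higher in the knockout for 10 of them (0.0593%) and lower for 7 (0.0415%). The smallest adjusted p was 0.0159. The 17 genes sit at 14 loci, and 8 of them overlap another gene of the table. In all 17, all 6 pairwise knockout differences (a CCl4 library less an oil library) lay on one side of all 9 wild-type differences, which is called a separated response below. Over all tested genes, 4.51% had separated responses that were higher in the knockout and 5.51% ones that were lower. For 8 of the 17 the response was below 0 in wild type and above 0 in the knockout, for 7 the reverse, and for Teddm2 and Mir8114 both were below 0. The median interaction of all tested genes was 0.01. At an unadjusted p below 0.05 stood 2318 genes (13.7%), with 968 higher (5.74%) and 1350 lower (8.0%), and gene groups below are read against these shares.

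**Figure D1:**
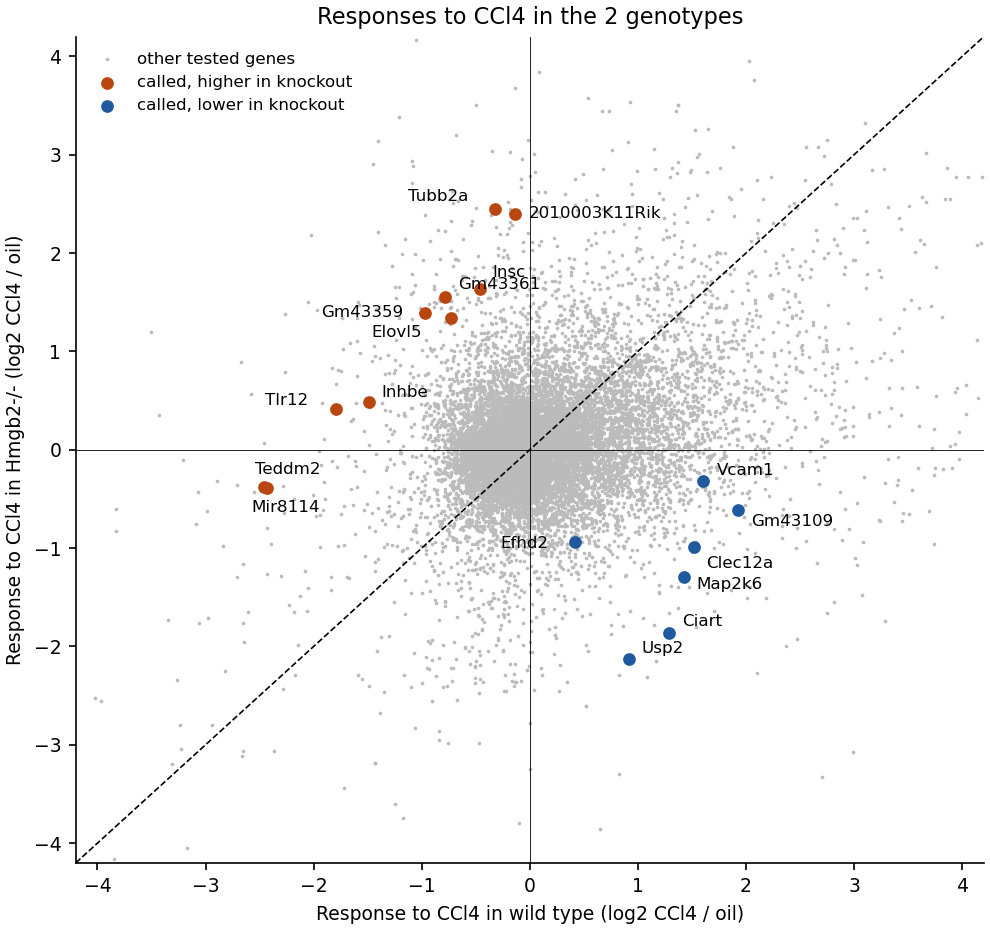
Each point is a tested gene, with its response to CCl4 in wild type on the x axis and in Hmgb2-/- on the y axis (log2 CCl4 / oil). The dashed line marks equal responses, 90 genes lie outside the axes, and the 17 genes that passed the interaction test lie away from that line, 10 above it and 7 below.

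The called genes were not set apart by one group alone. For each gene the group whose mean log2 CPM lay farthest from the mean of the other 3 groups was found, as a description. It was KO_Oil for 9 of the 17 genes, WT_Oil for 4, WT_CCL4 for 4 and KO_CCL4 for 0. Over all tested genes KO_Oil was farthest for 33.8%, WT_CCL4 for 29.8%, WT_Oil for 24.1% and KO_CCL4 for 12.3%. For 14 of the 17 the difference between the genotypes was larger after oil than after CCl4. This compares sizes only, and in several of the 14 the direction reversed at nearly the same size. Knockout less wild type was, in log2, -1.11 (SE 0.19) after oil and 1.09 (SE 0.17) after CCl4 in Tlr12. It was -1.02 and 0.96 in Inhbe and 1.30 and -1.24 in Gm43109. In 2010003K11Rik, by contrast, it went from -2.75 to -0.20.

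The number of genes that passed depended on single libraries. Without WT_Oil 3, KO_Oil 11 or KO_Oil 12, 0 genes passed by edgeR, with 1793, 1651 and 2052 at an unadjusted p below 0.05. It was 4 without WT_Oil 2 or without WT_CCL4 6, 6 without WT_CCL4 4 or without KO_CCL4 24, 40 without WT_Oil 1, 84 without KO_CCL4 15, 169 without KO_CCL4 25 and 285 without WT_CCL4 5. DESeq2 called 372 genes of 16866 tested on all libraries, and gene group counts of passing genes below are read against these totals. Each of the 17 kept its direction in every one of these fits, and each kept its call in 3 to 8 of the 11 fits that left out 1 library.

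**Figure D2:**
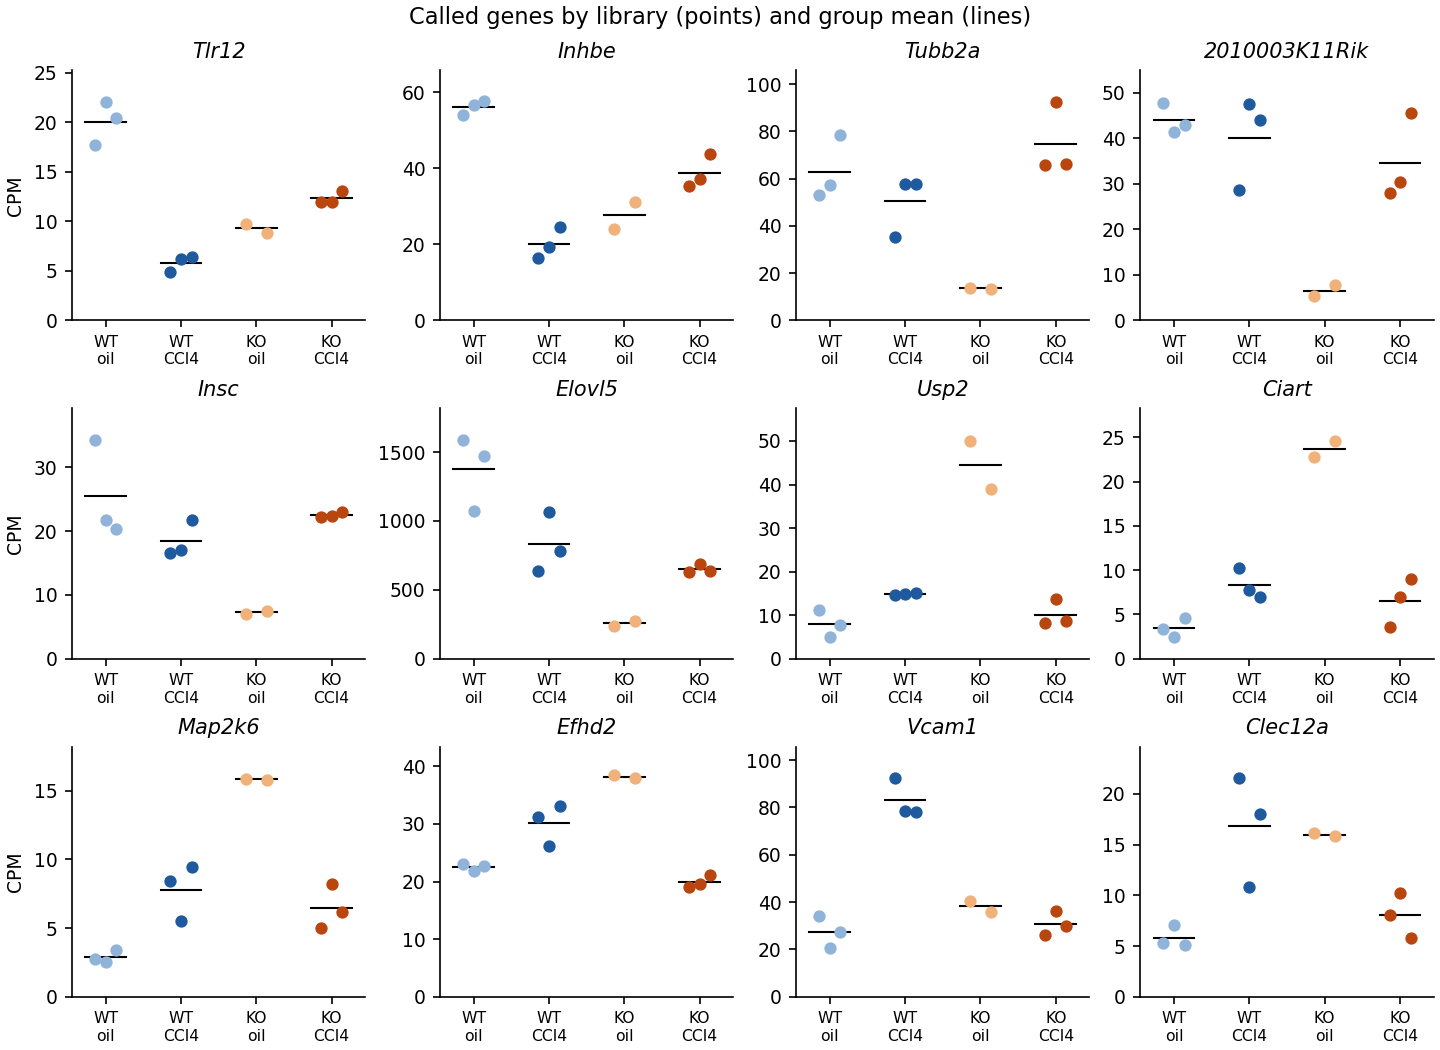
Levels of 12 of the 17 genes in CPM on linear axes from 0, with 1 point per library and a line at the mean of each group. KO_Oil lies apart from the other 3 groups in Tubb2a, 2010003K11Rik, Insc, Elovl5, Usp2 and Ciart, and WT_CCL4 lies apart in Vcam1.

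Tubb2a, which encodes a beta-tubulin of microtubules (ENSMUSG00000058672, chromosome 13, 34074301 to 34078008, minus strand), had the largest positive interaction of the 17. It had 52.9, 57.1 and 78.4 CPM after oil and 35.5, 57.8 and 57.7 CPM after CCl4 in wild type, and 13.9 and 13.5 CPM after oil and 65.9, 92.3 and 66.1 CPM after CCl4 in the knockout. Only the KO_Oil libraries were low, with 13.9 and 13.5 CPM, and they overlapped with no other group. Tubb2a is nearly identical to Tubb2b over much of its length, and how shared reads were assigned was not given. The wild-type response was -0.32 (SE 0.22), the knockout response was 2.45 (SE 0.28), and the interaction was 2.77 (SE 0.35; edgeR's quasi-likelihood test, adjusted p = 0.0159). Of 17 tested tubulin and cytoskeleton genes this was the one that passed, with 6 higher and 4 lower at an unadjusted p below 0.05. With 1 library left out, 5 (KO_Oil 11) to 8 (WT_CCL4 5) were higher and 2 to 6 (KO_CCL4 25) lower, and 4 passed without WT_CCL4 5. Tubb4b, a second beta-tubulin gene, had an interaction of 1.14 (edgeR adjusted p = 0.0946), and the alpha-tubulin gene Tuba1c one of 1.02 (edgeR adjusted p = 0.164). In the same list Stmn1, which encodes a microtubule-destabilising protein of dividing cells, pointed the other way at -2.12 (edgeR adjusted p = 0.152).

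Elovl5 (ENSMUSG00000032349, chromosome 9, 77917364 to 77984519, plus strand) encodes an elongase of polyunsaturated fatty acids and was the most abundant called gene. Its levels were 1585, 1074 and 1473 CPM after oil and 640.2, 1068 and 782 CPM after CCl4 in wild type, and 238 and 277 CPM after oil and 631, 689 and 633 CPM after CCl4 in the knockout. Both KO_Oil libraries lay below all others, and after CCl4 the genotypes overlapped. The mean was 1378 ± 269 CPM (SD, n = 3) in WT_Oil against 257 ± 27.5 CPM (SD, n = 2) in KO_Oil. The interaction was 2.07 (SE 0.33; edgeR adjusted p = 0.0387). It was the single called member of 23 tested genes of de novo lipogenesis and fatty acid elongation, of which 7 were higher and 1 lower at an unadjusted p below 0.05. When 1 library was left out, 3 (KO_Oil 11) to 11 (KO_CCL4 15) were higher, and 3 passed without WT_CCL4 5. Without both E libraries, which leaves KO_CCL4 15 alone in its group, the list's median turned from 0.35 to -0.51. Elovl2, which also elongates polyunsaturated fatty acids, had an interaction of 1.02 (edgeR adjusted p = 0.211). Fasn, the fatty acid synthase, reached 969.8, 2364 and 272 CPM in KO_CCL4 24, 25 and 15 against 336 and 232 CPM in KO_Oil, so its knockout response rested on the libraries titled E.

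Insc (ENSMUSG00000048782, chromosome 7, 114743694 to 114850383, plus strand), which encodes an adaptor that orients the mitotic spindle, had 34.3, 21.7 and 20.4 CPM after oil and 16.6, 17.1 and 21.8 CPM after CCl4 in wild type, and 7.03 and 7.47 CPM after oil and 22.2, 22.3 and 23 CPM after CCl4 in the knockout. KO_Oil was again the low group, and KO_CCL4 lay above WT_CCL4 and overlapped with WT_Oil, with an interaction of 2.09 (SE 0.31; edgeR adjusted p = 0.0276). The gene model 2010003K11Rik (ENSMUSG00000042041, chromosome 19, 4496790 to 4498583, minus strand) had 47.8, 41.3 and 43 CPM after oil and 28.6, 47.4 and 43.9 CPM after CCl4 in wild type, and 5.31 and 7.75 CPM after oil and 28, 30.4 and 45.5 CPM after CCl4 in the knockout. Its KO_Oil levels were far below the lowest of the other 9 libraries, and the interaction was 2.54 (SE 0.37; edgeR adjusted p = 0.0259). Gm43361 and Gm43359, transcript models known only by number, lie within Atp2a2 on chromosome 5, the gene of the calcium pump SERCA2. Their interactions were 2.33 and 2.36 (edgeR adjusted p = 0.0159 and 0.0387). Gm43361 had 31, 35.8 and 38 CPM after oil and 20.7, 22.5 and 17.8 CPM after CCl4 in wild type, and 9.19 and 7.20 CPM after oil and 29.8, 19.8 and 22.6 CPM after CCl4 in the knockout, and Gm43359 had 16.6, 21.1 and 20.2 CPM after oil and 11.1, 7.07 and 11.4 CPM after CCl4 in wild type, and 3.45 and 3.40 CPM after oil and 11.4, 6.76 and 8.85 CPM after CCl4 in the knockout. Atp2a2 itself had 348, 308 and 340.0 CPM after oil and 222, 277 and 244 CPM after CCl4 in wild type, and 149 and 134 CPM after oil and 258, 188 and 247 CPM after CCl4 in the knockout, and its interaction of 1.13 did not pass (edgeR adjusted p = 0.0915). Gm43361 stood at 6.15% and 5.36% of the Atp2a2 level in KO_Oil and at 7.28% to 11.6% in the other groups. For Gm43359 it was 2.31% and 2.53% in KO_Oil and 2.55% to 6.86% in the other groups. Gm43359 lies on the strand of Atp2a2 and Gm43361 on the other. The use of strand in counting is unknown here, so their reads cannot be told apart from those of Atp2a2.

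Usp2 and Ciart pointed the other way, high in KO_Oil, and both belong to the circadian clock. In the clock, Clock and Arntl drive genes through the E-box CACGTG, and their products, the Per and Cry proteins and Ciart among them, hold Clock and Arntl back. Usp2 (ENSMUSG00000032010, chromosome 9, 44067021 to 44095627, plus strand), a ubiquitin protease whose RNA cycles through the day, had 11.1, 4.88 and 7.70 CPM after oil and 14.5, 14.8 and 15.1 CPM after CCl4 in wild type, and 50 and 39 CPM after oil and 8.12, 13.6 and 8.55 CPM after CCl4 in the knockout. The KO_Oil levels lay above every other library, and after CCl4 the 3 knockout libraries lay below the 3 wild-type ones. The interaction was -3.05 (SE 0.40; edgeR adjusted p = 0.0159). Ciart (ENSMUSG00000038550, chromosome 3, 95878503 to 95882251, minus strand), a repressor of Clock and Arntl, had 3.29, 2.44 and 4.58 CPM after oil and 10.2, 7.77 and 6.97 CPM after CCl4 in wild type, and 22.8 and 24.6 CPM after oil and 3.58, 7.01 and 9.05 CPM after CCl4 in the knockout, with an interaction of -3.15 (SE 0.46; edgeR adjusted p = 0.0259). KO_Oil was high and separate here too. Usp2 lies within the span of Gm49380 and Ciart within that of C920021L13Rik, both on the other strand, and those partners had interactions of -0.62 and -0.12.

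The promoter windows of Ciart and of the clock gene Per3 are shown because these genes carry the binding letters of the clock. The windows run from 250 bases before to 50 after the RefSeq start on GRCm38.p6 (chr3:95882179-95882478 and chr4:151044616-151044915, both minus strand). Capitals mark the E-box CACGTG in Ciart and the D-box TTANGTAA in Per3, the letters bound by Dbp, Tef and Hlf.
Ciart: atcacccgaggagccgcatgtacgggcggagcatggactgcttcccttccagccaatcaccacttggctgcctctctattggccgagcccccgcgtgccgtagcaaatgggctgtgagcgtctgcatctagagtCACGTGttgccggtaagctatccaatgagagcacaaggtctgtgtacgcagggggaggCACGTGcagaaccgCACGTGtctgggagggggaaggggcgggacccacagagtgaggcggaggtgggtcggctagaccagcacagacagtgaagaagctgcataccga
Per3: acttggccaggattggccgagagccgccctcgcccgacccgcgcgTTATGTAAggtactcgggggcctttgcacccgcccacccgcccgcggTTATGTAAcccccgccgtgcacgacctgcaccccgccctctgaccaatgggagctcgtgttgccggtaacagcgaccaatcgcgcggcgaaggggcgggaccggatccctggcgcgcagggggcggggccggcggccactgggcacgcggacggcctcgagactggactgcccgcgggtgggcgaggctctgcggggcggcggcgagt
The Ciart window held 3 E-boxes and the Per3 window 2 D-boxes. Of 29 windows of 22 matched clock genes, 24.1% held an E-box, against 7.15% of all 32851 windows searched on both strands. For the D-box the shares were 6.9% and 2.32%. A match is a description of letters and not of a bound site.

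Of 26 tested genes of the core clock and its output, 2 passed, both lower in the knockout response. At an unadjusted p below 0.05, 11 were lower and 5 higher, and separated responses were found in 10 lower and 3 higher. In fits without 1 library, 9 (WT_CCL4 4, KO_Oil 11, KO_Oil 12 or KO_CCL4 24) to 14 (KO_CCL4 25) were lower and 3 (KO_Oil 12) to 5 higher. KO_Oil was the farthest group for 22 of the 26. Per3, a period gene, had 5.79, 8.0 and 8.09 CPM after oil and 23.1, 13.1 and 24.8 CPM after CCl4 in wild type, and 97.2 and 93 CPM after oil and 32.7, 59 and 16.3 CPM after CCl4 in the knockout, and its interaction was -2.87 (SE 0.55; edgeR adjusted p = 0.0662). Its KO_Oil levels lay above every other library. Wee1, a cell cycle kinase gene under clock control, followed at -2.93 (edgeR adjusted p = 0.0862), with 24.5 and 24.2 CPM in KO_Oil against 1.70, 3.89 and 3.80 CPM in WT_Oil. Dbp, a D-box activator, had 123 and 144 CPM in KO_Oil and 18.2, 17.1 and 18 CPM in WT_Oil, and 39.2, 99.8 and 22.5 CPM in KO_CCL4, with an interaction of -1.57 (edgeR adjusted p = 0.249). KO_CCL4 25 was close to KO_Oil and KO_CCL4 15 to WT_Oil. Tef, a relative of Dbp, had an interaction of -1.0 and the cryptochrome gene Cry2 one of -0.81 (edgeR adjusted p = 0.123 and 0.121).

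Arntl, the partner of Clock, was low in KO_Oil. It had 28.5, 20.7 and 24.2 CPM after oil and 21.4, 28.4 and 19.9 CPM after CCl4 in wild type, and 2.15 and 2.72 CPM after oil and 19.4, 6.35 and 31.7 CPM after CCl4 in the knockout, so KO_Oil and KO_CCL4 25 stood below the rest. Its interaction was 3.03 (SE 0.70; edgeR adjusted p = 0.102). Npas2, a partner of Arntl that can replace Clock, had 0 reads in both KO_Oil libraries, which allows up to 0.431 and 0.408 CPM, and 3.18, 1.60 and 2.83 CPM in WT_Oil, 2.58, 2.01 and 3.11 CPM in WT_CCL4 and 1.55, 1.07 and 2.82 CPM in KO_CCL4 (edgeR adjusted p = 0.0849), with no fold given against 0. Clock itself had an interaction of 1.21 (edgeR adjusted p = 0.321). In Per3, Dbp and Arntl, KO_CCL4 25 was the knockout CCl4 library nearest to KO_Oil. In Ciart it was KO_CCL4 15, at 9.05 CPM against 7.01 CPM in KO_CCL4 25. Without KO_CCL4 25, 9 of the 26 clock genes passed, and without WT_CCL4 5, 4 did. The clock genes set the KO_Oil libraries apart and the hour of collection was not given, and the part of the clock in the other results was not tested.

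**Figure D3:**
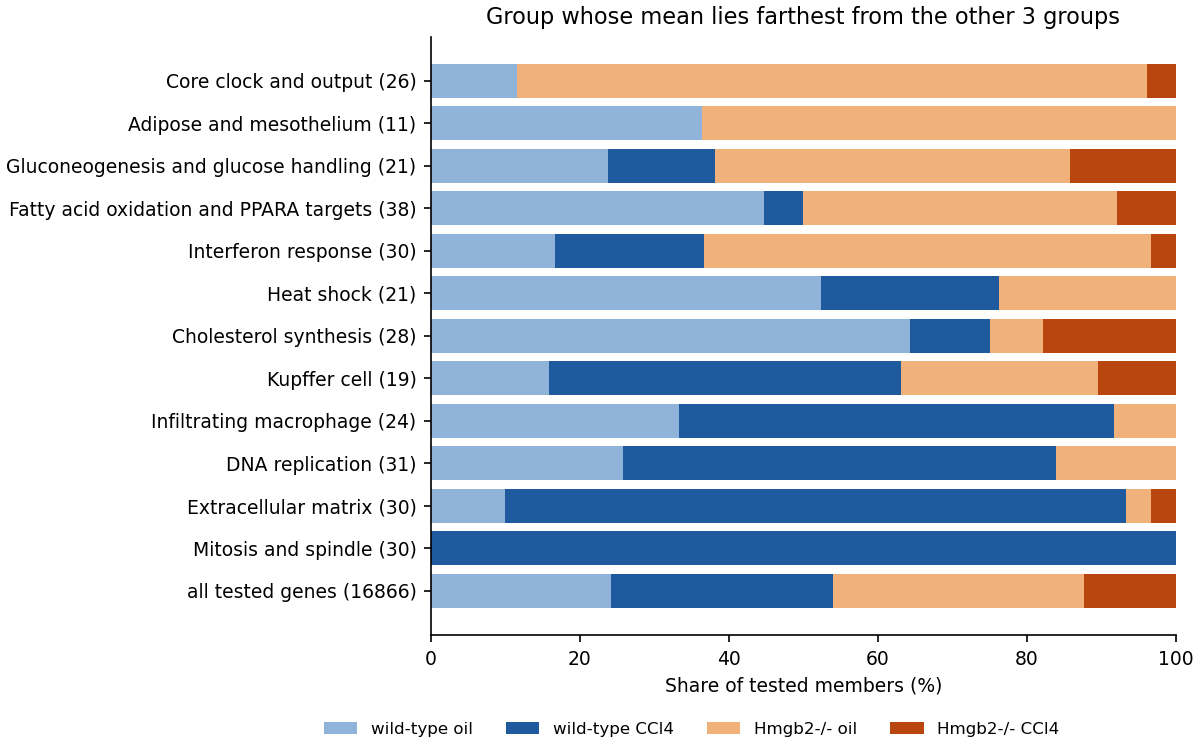
Share of tested members of each list (number in brackets) for which each group's mean log2 CPM lay farthest from the other 3, with all 16866 tested genes as the bottom bar. KO_Oil takes 22 of 26 clock genes and WT_CCL4 all 30 mitosis genes, while KO_CCL4 takes 1 of the clock genes and 0 of the mitosis genes.

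Tlr12 and Inhbe were highest in wild-type liver after oil. Tlr12, an intracellular toll-like receptor that recognises profilin of protozoa (ENSMUSG00000062545, chromosome 4, 128615443 to 128618619, minus strand), had 17.7, 22.1 and 20.4 CPM after oil and 4.84, 6.19 and 6.40 CPM after CCl4 in wild type, and 9.76 and 8.83 CPM after oil and 12, 12 and 13.1 CPM after CCl4 in the knockout. The 4 groups did not overlap, and KO_CCL4 lay above KO_Oil while WT_CCL4 lay below WT_Oil. The interaction was 2.20 (SE 0.26; edgeR adjusted p = 0.0159). Inhbe (ENSMUSG00000047492, chromosome 10, 127349402 to 127351772, minus strand), the activin E subunit secreted by hepatocytes, had 54, 56.6 and 57.7 CPM after oil and 16.3, 19.2 and 24.6 CPM after CCl4 in wild type, and 24.1 and 31.1 CPM after oil and 35.4, 37.2 and 43.8 CPM after CCl4 in the knockout. WT_Oil lay above all other libraries, KO_Oil overlapped with WT_CCL4, and KO_CCL4 lay above both (interaction 1.98, SE 0.26; edgeR adjusted p = 0.0159). The related activin subunit gene Inhbb had an interaction of 2.75 that did not pass (edgeR adjusted p = 0.161).

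Map2k6 (ENSMUSG00000020623, chromosome 11, 110399122 to 110525522, plus strand), the gene of the kinase MKK6 that activates p38, had 2.72, 2.52 and 3.41 CPM after oil and 8.42, 5.50 and 9.42 CPM after CCl4 in wild type, and 15.9 and 15.8 CPM after oil and 5.03, 8.24 and 6.14 CPM after CCl4 in the knockout. Both knockout oil libraries were the highest and the WT_Oil libraries the lowest of the 11, and the CCl4 groups overlapped, with an interaction of -2.72 (SE 0.38; edgeR adjusted p = 0.0228). Efhd2, a calcium-binding protein of the actin skeleton (ENSMUSG00000040659, chromosome 4, 141858142 to 141874920, minus strand), had the smallest called difference. Its levels were 23, 21.9 and 22.7 CPM after oil and 31.2, 26.1 and 33.1 CPM after CCl4 in wild type, and 38.5 and 37.9 CPM after oil and 19.1, 19.5 and 21.2 CPM after CCl4 in the knockout, the spread within each group was narrow, and the interaction was -1.36 (SE 0.20; edgeR adjusted p = 0.0259). KO_CCL4 lay below all other groups and KO_Oil above them.

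Vcam1 (ENSMUSG00000027962, chromosome 3, 116109949 to 116129688, minus strand), the adhesion molecule by which activated endothelium holds leukocytes, was high only in injured wild-type liver. It had 34.2, 20.7 and 27.5 CPM after oil and 92.5, 78.4 and 78.2 CPM after CCl4 in wild type, and 40.5 and 36 CPM after oil and 25.9, 36.3 and 29.8 CPM after CCl4 in the knockout. The 3 WT_CCL4 libraries lay above the other 8, including WT_CCL4 5, and the knockout groups overlapped. The wild-type response was 1.60 (SE 0.19), the knockout response -0.32 (SE 0.21) and the interaction -1.92 (SE 0.28; edgeR adjusted p = 0.0259). Under the offset for GC content and length the Vcam1 interaction was -1.88 and did not pass (edgeR adjusted p = 0.0726). Vcam1 was the single member at even an unadjusted p below 0.05 among 24 tested endothelial genes, whose median interaction was -0.22. The sinusoidal genes Stab2 and Clec4g had interactions of 0.24 and -0.22 (edgeR adjusted p = 0.78 and 0.713). Gm43109, called at -2.54 (SE 0.42; edgeR adjusted p = 0.0438), runs antisense across the start of Vcam1 and shares 1238 bases with it. It had 1.59, 1.22 and 1.46 CPM after oil and 6.10, 4.97 and 5.09 CPM after CCl4 in wild type, and 2.87 and 4.08 CPM after oil and 1.64, 2.64 and 2.52 CPM after CCl4 in the knockout, or 4.65% to 11.3% of the Vcam1 level, and its reads cannot be told apart from those of Vcam1.

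Clec12a (ENSMUSG00000053063, chromosome 6, 129342691 to 129365303, plus strand), an inhibitory lectin receptor of myeloid cells, had 5.34, 7.09 and 5.07 CPM after oil and 21.6, 10.8 and 18 CPM after CCl4 in wild type, and 16.1 and 15.9 CPM after oil and 8.03, 10.2 and 5.83 CPM after CCl4 in the knockout. WT_CCL4 and KO_Oil were high and overlapped, while WT_Oil and KO_CCL4 were low and overlapped. The interaction was -2.51 (SE 0.40; edgeR adjusted p = 0.0387). In bulk liver, fewer cells of a type and less RNA per cell cannot be told apart, which holds for this and all cell-type genes below.

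Teddm2 and Mir8114 passed at the start of Glul, which encodes glutamine synthetase, the enzyme of the innermost ring of hepatocytes around the central vein. Glul (ENSMUSG00000026473, chromosome 1, 153899944 to 153909723, plus strand) had 867, 1082 and 1174 CPM after oil and 135, 249 and 151 CPM after CCl4 in wild type, and 983 and 1224 CPM after oil and 916, 866 and 672 CPM after CCl4 in the knockout. The 3 WT_CCL4 libraries were far below all others, and KO_CCL4 lay below KO_Oil and overlapped with WT_Oil. The wild-type response was -2.55 (SE 0.25), the knockout response -0.43 (SE 0.27) and the interaction 2.11 (SE 0.37), which missed the threshold (edgeR adjusted p = 0.057). Teddm2 had an interaction of 2.04 (SE 0.31; edgeR adjusted p = 0.0276) and Mir8114 one of 2.08 (SE 0.32; edgeR adjusted p = 0.0281). In every library Teddm2 stood at 8.94% to 11.1% of the Glul level and Mir8114 at 7.99% to 10.2%. Teddm2 had 87.5, 103 and 111 CPM after oil and 15, 25.2 and 15.6 CPM after CCl4 in wild type, and 96.2 and 109 CPM after oil and 87.4, 82.2 and 65.6 CPM after CCl4 in the knockout, so it followed Glul library by library. Teddm2 runs on the other strand and shares 285 bases with Glul, and the Mir8114 hairpin (chromosome 1, 153899926 to 153900036, plus strand) shares 93, so both calls carry reads that cannot be told apart from those of Glul.

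The overlap is shown in the Glul promoter window of RefSeq on GRCm38.p6 (chr1:153899679-153899978, plus strand), where capitals mark the 53 bases that the Mir8114 hairpin shares with it. The mature miRNA named for that hairpin (chr1:153899989-153900009, plus strand) has its seed, bases 2 to 8, in capitals.
Glul: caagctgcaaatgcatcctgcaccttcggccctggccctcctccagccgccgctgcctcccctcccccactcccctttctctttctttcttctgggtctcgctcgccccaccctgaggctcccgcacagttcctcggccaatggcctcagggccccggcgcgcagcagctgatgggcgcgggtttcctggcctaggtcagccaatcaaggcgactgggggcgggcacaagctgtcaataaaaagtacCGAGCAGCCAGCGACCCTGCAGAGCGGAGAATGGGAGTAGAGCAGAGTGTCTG
mmu-miR-8114: uCACCCAUcuccucuccgccu
Total RNA libraries of this kind hold few mature miRNAs, and the counts of the hairpin locus are not a measure of the mature miRNA.

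Glul had the smallest adjusted p among genes of hepatocytes around the central vein. Of 27 tested pericentral genes, 6 were higher and 2 lower at an unadjusted p below 0.05, and 0 passed by edgeR (DESeq2 called 2). The list's median interaction was 0.10, so its members were split. The 6 higher were Glul, Rhbg, Lgr5, Oat, Slc1a2 and Cyp2e1, and the 2 lower Cyp3a11 and Lect2. Over the fits that each lacked 1 library, 4 (KO_Oil 11) to 9 (WT_CCL4 5) were higher and 0 (KO_Oil 12) to 3 (WT_CCL4 5) lower, and without both E libraries 7 were higher and 5 lower. Rhbg, an ammonium transporter gene, had 6.93, 6.71 and 7.01 CPM after oil and 1.95, 4.54 and 1.70 CPM after CCl4 in wild type, and 11.2 and 11.8 CPM after oil and 19.6, 24.1 and 15.3 CPM after CCl4 in the knockout and an interaction of 2.12 (edgeR adjusted p = 0.0887). Slc1a2, a glutamate transporter gene, had 271, 374 and 443 CPM after oil and 1.95, 43.1 and 1.32 CPM after CCl4 in wild type, and 340.5 and 441 CPM after oil and 202, 199 and 207 CPM after CCl4 in the knockout. In wild type 2 of the 3 CCl4 libraries were near 0 and WT_CCL4 5 was between, whereas in the knockout all 3 stood above WT_CCL4 (interaction 3.62; edgeR adjusted p = 0.244). Oat, ornithine aminotransferase, gave 3.0 and the WNT receptor gene Lgr5 1.08 (edgeR adjusted p = 0.188 and 0.178). Cyp2e1, which activates CCl4, had 8992, 9949 and 11563 CPM after oil and 2777, 5454 and 3221 CPM after CCl4 in wild type, and 8122 and 9340.1 CPM after oil and 5751, 4801 and 8846 CPM after CCl4 in the knockout, with an interaction of 0.98 that did not pass (SE 0.44; edgeR adjusted p = 0.358). Cyp3a11 pointed the other way at -0.96 (edgeR adjusted p = 0.293), and Axin2, a general WNT target, gave 0.06. Without WT_CCL4 5, 4 of the 27 passed.

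Genes of mitosis formed the group with the most negative median among lists of at least 10 tested genes. None of 30 passed by edgeR, 21 were lower and 0 higher at an unadjusted p below 0.05, 14 had separated responses, all lower in the knockout, and DESeq2 called 12. The median response was 2.92 in wild type and 0.39 in the knockout, and the median interaction was -2.43, from -3.85 to -2.14 over the 21 alternative settings. With 1 library left out, 14 (KO_Oil 12) to 23 (WT_CCL4 5) were lower. WT_CCL4 was the farthest group for all 30. The mean log2 level of the 30 genes, less that of WT_Oil, was 3.08, 1.57 and 2.99 in WT_CCL4, 0.23 and 0.03 in KO_Oil and 0.29, 1.02 and -0.18 in KO_CCL4. WT_CCL4 5 was lower than its partners and KO_CCL4 25 higher than its own, and all WT_CCL4 libraries lay above all KO_CCL4 libraries.

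Birc5, which encodes survivin of the chromosomal passenger complex, had 1.82, 1.45 and 1.75 CPM after oil and 8.55, 3.84 and 7.35 CPM after CCl4 in wild type, and 2.01 and 2.45 CPM after oil and 1.16, 1.48 and 1.51 CPM after CCl4 in the knockout (interaction -2.67, SE 0.51; edgeR adjusted p = 0.0662). KO_CCL4 lay below KO_Oil and overlapped with WT_Oil, and WT_CCL4 lay above all other libraries. Mki67, the proliferation marker, had 2.04, 3.43 and 3.99 CPM after oil and 86.2, 10.6 and 52.9 CPM after CCl4 in wild type, and 8.04 and 3.81 CPM after oil and 4.55, 12.4 and 2.72 CPM after CCl4 in the knockout, with an interaction of -3.79 and a wide SE of 1.06 (edgeR adjusted p = 0.161). KO_CCL4 25 exceeded WT_CCL4 5 here, so the CCl4 groups overlapped. Prc1, a crosslinker of the spindle midzone, had 0.341, 1.22 and 0.682 CPM after oil and 12.3, 5.15 and 15.1 CPM after CCl4 in wild type, and 1.72 and 1.09 CPM after oil and 1.84, 3.21 and 1.01 CPM after CCl4 in the knockout (interaction -3.22; edgeR adjusted p = 0.151). Knstrn, a kinetochore adaptor gene outside the list and among the nearest to passing, reached -4.90 (SE 0.88; edgeR adjusted p = 0.057), with 20.5, 5.15 and 17 CPM in WT_CCL4 and 0.967, 1.73 and 1.01 CPM in KO_CCL4. Without WT_CCL4 5, 10 of the 30 mitosis genes passed.

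The promoter of Prc1 is shown since mitosis genes share the CHR letters TTTGAA and the CCAAT box, in capitals, through which their transcription is tied to the cell cycle (RefSeq, GRCm38.p6, chr7:80294201-80294500, plus strand).
Prc1: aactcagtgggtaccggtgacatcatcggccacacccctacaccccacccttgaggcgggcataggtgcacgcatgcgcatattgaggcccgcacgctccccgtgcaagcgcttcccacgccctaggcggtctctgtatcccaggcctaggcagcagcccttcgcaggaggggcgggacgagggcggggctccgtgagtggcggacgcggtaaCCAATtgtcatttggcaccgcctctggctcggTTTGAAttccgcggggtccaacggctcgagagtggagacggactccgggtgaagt
A CHR was found in 76.9% of 26 windows of 24 matched mitosis genes against 17.9% of all windows, and a CCAAT box in 84.6% against 37.4%, both strands searched.

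Genes of DNA replication had a smaller median. Of 31 tested, 0 passed by edgeR (DESeq2 called 3), 10 were lower and 0 higher at an unadjusted p below 0.05, with a median interaction of -0.81. When 1 library was left out, 6 (WT_CCL4 4, WT_CCL4 6 or KO_Oil 11) to 16 (WT_CCL4 5, where 4 passed) were lower. They did not follow one pattern, since some were highest in KO_Oil. Tk1, thymidine kinase, had 29.4, 25.9 and 18.9 CPM after oil and 39.1, 34 and 36.9 CPM after CCl4 in wild type, and 56.7 and 56.9 CPM after oil and 35.7, 26.2 and 30.6 CPM after CCl4 in the knockout, with KO_Oil above all others (interaction -1.45, SE 0.26; edgeR adjusted p = 0.057). Mcm5, a subunit of the replicative helicase, had 2.38, 1.30 and 0.779 CPM after oil and 13.2, 2.70 and 12.6 CPM after CCl4 in wild type, and 1.44 and 2.31 CPM after oil and 1.74, 3.63 and 0.604 CPM after CCl4 in the knockout and was high only in WT_CCL4 4 and 6 (-2.59; edgeR adjusted p = 0.299). Among 20 tested targets of the DNA damage factor p53, 0 passed by edgeR (DESeq2 called 1), 9 were lower and 1 higher at an unadjusted p below 0.05. In fits without 1 library, 4 (KO_Oil 12) to 10 (WT_CCL4 5) were lower and 0 to 2 higher. Phlda3 led with -3.56 (edgeR adjusted p = 0.0915). The higher one was Cdkn1a, which encodes the cell cycle inhibitor p21, with 19.1, 4.50 and 14.5 CPM after oil and 20.4, 23.7 and 30.3 CPM after CCl4 in wild type, and 0 and 0.136 CPM after oil and 2.13, 0.989 and 15.5 CPM after CCl4 in the knockout (edgeR adjusted p = 0.335). KO_Oil held a single read of it, so no fold is given, and KO_CCL4 15 lay within the wild-type range while KO_CCL4 24 and 25 did not.

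**Figure D4:**
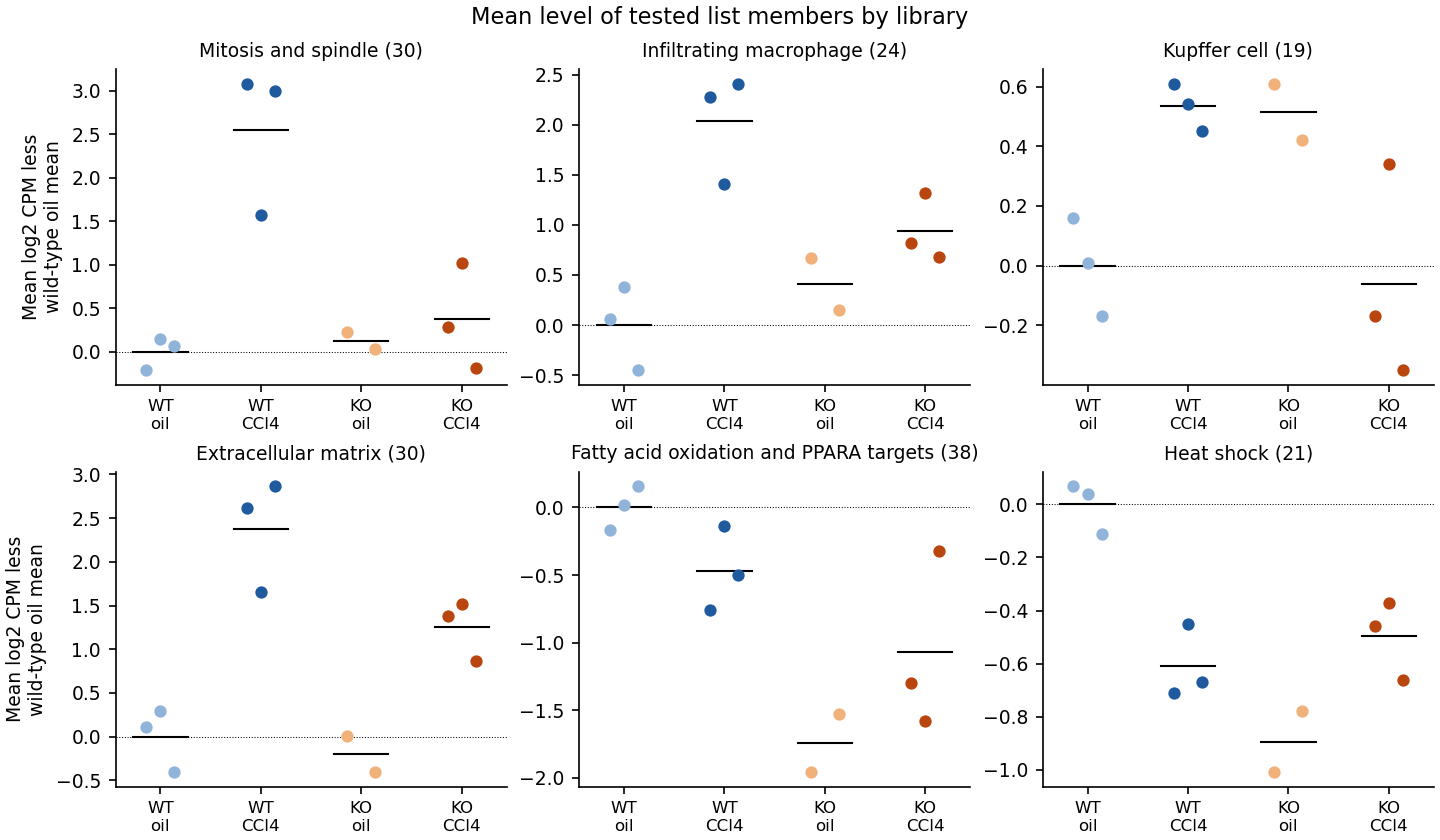
Mean log2 CPM over the tested members of 6 lists in each library (points), less the mean of the WT_Oil libraries (dotted line at 0), with a line at the mean of each group. The mean of WT_CCL4 stands above the other groups in mitosis, macrophage and matrix genes, while the mean of KO_Oil is lowest in fatty acid oxidation and heat shock genes.

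The level of 24 tested genes of infiltrating macrophages, less that of WT_Oil, was 2.28, 1.41 and 2.41 in WT_CCL4, 0.67 and 0.15 in KO_Oil and 0.82, 1.32 and 0.68 in KO_CCL4 as a mean log2. All WT_CCL4 libraries lay above all others, WT_CCL4 5 by little. Of the 24, Clec12a passed, 14 were lower and 0 higher at an unadjusted p below 0.05, and 9 had separated responses, all lower. Over the fits that each lacked 1 library, 10 (KO_Oil 11) to 17 (WT_Oil 2 or WT_CCL4 5) were lower. The median response was 1.95 in wild type and 0.60 in the knockout. Clec7a, the beta-glucan receptor dectin-1, had 9.76, 11.2 and 8.96 CPM after oil and 55.6, 31.4 and 60.2 CPM after CCl4 in wild type, and 19.8 and 19 CPM after oil and 22.3, 29.9 and 26.5 CPM after CCl4 in the knockout (interaction -1.86, SE 0.33; edgeR adjusted p = 0.057). KO_CCL4 overlapped neither KO_Oil nor WT_CCL4 and lay between them. Lgals3, the gene of galectin-3, had 7.72, 8.92 and 4.48 CPM after oil and 61.9, 20.3 and 78.5 CPM after CCl4 in wild type, and 11.6 and 9.79 CPM after oil and 10.2, 13.5 and 13.9 CPM after CCl4 in the knockout (interaction -2.69; edgeR adjusted p = 0.0991), and the lysosomal gene Cd68 gave -1.87 (edgeR adjusted p = 0.0856). Gpnmb, a marker of lipid-laden macrophages, had 2.04, 8.08 and 0.584 CPM after oil and 190.2, 53.5 and 272 CPM after CCl4 in wild type, and 6.32 and 0.544 CPM after oil and 27.6, 34.7 and 38.2 CPM after CCl4 in the knockout. It was above every oil library in all 6 CCl4 libraries, the interaction of -2.21 (SE 1.22) did not pass (edgeR adjusted p = 0.462), and without KO_Oil 11 its sign turned (0.39). Without WT_CCL4 5, 10 of the 24 passed, and without KO_CCL4 25, 4 did.

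Kupffer cells are the resident macrophages of the sinusoids. Of 19 tested Kupffer cell genes 0 passed by edgeR (DESeq2 called 5), 15 were lower and 0 higher at an unadjusted p below 0.05 and 10 had separated responses. With 1 library left out, 12 to 16 were lower, and 3 passed without WT_CCL4 5 and 6 without KO_CCL4 25. Their median response was 0.64 in wild type and -0.47 in the knockout. The mean log2 level less WT_Oil was 0.61, 0.54 and 0.45 in WT_CCL4, 0.61 and 0.42 in KO_Oil and -0.17, 0.34 and -0.35 in KO_CCL4. WT_CCL4 and KO_Oil overlapped and stood above WT_Oil, and KO_CCL4 spread from below WT_Oil to just under KO_Oil. Vsig4, a complement receptor of Kupffer cells, had 37.1, 46.6 and 40.8 CPM after oil and 80.3, 55.3 and 57.2 CPM after CCl4 in wild type, and 62.5 and 55.9 CPM after oil and 35.5, 45.4 and 34.1 CPM after CCl4 in the knockout (interaction -1.25, SE 0.26; edgeR adjusted p = 0.0856). The complement gene C1qb gave -1.34 (edgeR adjusted p = 0.0997). Clec4f, found in the liver only on Kupffer cells, gave -0.73 (edgeR adjusted p = 0.287), Timd4, of the long-resident cells, -0.87 (edgeR adjusted p = 0.461), and Adgre1, the F4/80 antigen gene, -1.16 (SE 0.48; edgeR adjusted p = 0.306).

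In 6 other immune lists 0 passed by edgeR. At an unadjusted p below 0.05 stood 5 of 15 for MHC class II and dendritic cells, 5 of 14 for B and plasma cells, 4 of 14 for T and NK cells, 3 of 10 for neutrophils, 6 of 14 for chemokines and 5 of 30 for the interferon response, all lower. In the same order, DESeq2 called 0, 1, 0, 0, 1 and 0 of them. When 1 library was left out, the counts ran, in that order, from 1 (KO_Oil 12) to 9 (KO_CCL4 25), from 2 (KO_Oil 12) to 8 (WT_Oil 1 or KO_CCL4 25), from 2 to 8 (KO_CCL4 25), from 0 (KO_Oil 11) to 5, from 2 (KO_Oil 12) to 7 (WT_Oil 1) and from 3 to 12 (KO_Oil 11 or KO_CCL4 25). The fit without both E libraries leaves KO_CCL4 15 alone in its group, and its counts for these lists are not given. A lower response here went with higher knockout levels after oil. In the same order of lists, the median log2 difference of knockout less wild type after oil was 0.99, 0.98, 1.57, 1.53, 1.13 and 1.06. After CCl4 that median was -0.19, -0.25, -0.15, -0.65, -0.14 and 0.54. The B cell antigen gene Ms4a1 came nearest to passing. It had 0.568, 0.686 and 0.682 CPM after oil and 3.96, 3.32 and 3.58 CPM after CCl4 in wild type, and 2.30 and 2.85 CPM after oil and 2.90, 2.88 and 3.32 CPM after CCl4 in the knockout, so WT_Oil alone was low and the other 3 groups were close (interaction -2.23, SE 0.40; edgeR adjusted p = 0.057). For interferon genes KO_Oil was the farthest group for 18 of 30, and the guanylate-binding protein gene Gbp2 had 14.5 and 31.5 CPM in KO_Oil 11 and 12 against 9.31, 10.9 and 6.14 CPM in WT_Oil, with KO_Oil 12 well above KO_Oil 11.

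Of 30 tested matrix genes, 0 passed by edgeR (DESeq2 called 2), 8 were lower and 0 higher at an unadjusted p below 0.05, and 1 had a separated response. In fits without 1 library, 2 (WT_Oil 3, WT_CCL4 6 or KO_Oil 11) to 18 (WT_CCL4 5, where 2 passed) were lower, and without both E libraries 13 were, with a median interaction of -1.19 against -0.77 on all libraries. The median response was 2.41 in wild type and 1.55 in the knockout. Col1a1, which encodes a chain of type I collagen, had 5.34, 13.5 and 3.70 CPM after oil and 368, 80.3 and 443 CPM after CCl4 in wild type, and 8.76 and 2.72 CPM after oil and 61.8, 55.6 and 16 CPM after CCl4 in the knockout. WT_CCL4 5 stood near the knockout CCl4 libraries, and the interaction of -2.31 (SE 1.06) did not pass (edgeR adjusted p = 0.362). The gelatinase gene Mmp2 had tighter groups, with 5.34, 3.81 and 3.60 CPM after oil and 36.8, 30 and 42.7 CPM after CCl4 in wild type, and 3.01 and 3.13 CPM after oil and 17.6, 18.4 and 13.7 CPM after CCl4 in the knockout. Its CCl4 groups did not overlap, and its interaction was -0.68 (SE 0.33; edgeR adjusted p = 0.392). Bgn, the proteoglycan biglycan, was the member with separated responses, at 62.4, 51.7 and 52.6 CPM after oil and 158, 114 and 184 CPM after CCl4 in wild type, and 75.2 and 53.5 CPM after oil and 59.9, 77.7 and 60.1 CPM after CCl4 in the knockout (interaction -1.42, SE 0.30; edgeR adjusted p = 0.0856). Acta2, the smooth muscle actin of myofibroblasts, gave 0.28 (SE 0.88; edgeR adjusted p = 0.927) and Timp1, an inhibitor of matrix proteases, 0.56 (SE 1.18; edgeR adjusted p = 0.883), and without both E libraries both turned sign, to -1.25 and -0.75. Of 22 tested stellate cell and myofibroblast genes 3 were lower at an unadjusted p below 0.05, with a median of -0.19, and 1 to 4 (KO_CCL4 25) with 1 library left out.

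**Figure D5:**
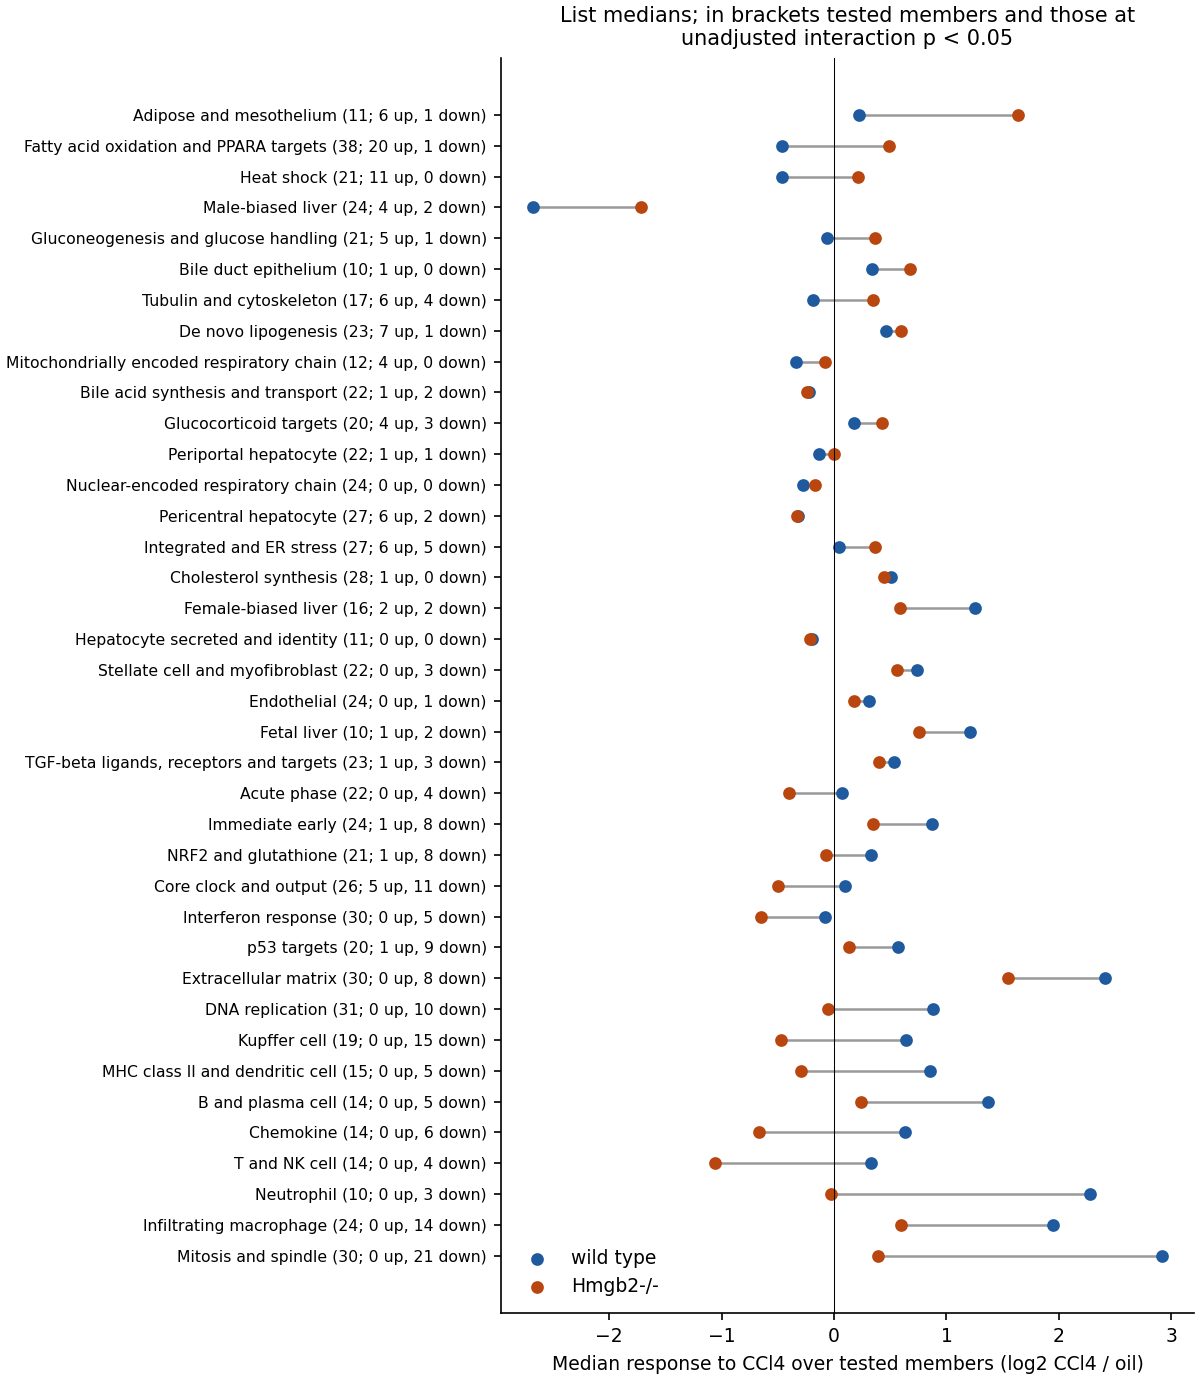
Median response to CCl4 over the tested members of each list with at least 10 tested members (log2 CCl4 / oil), in wild type and in Hmgb2-/-, joined by a line whose length is the distance between the medians. Brackets give the tested members and those at an unadjusted interaction p below 0.05, and mitosis genes span from 2.92 in wild type to 0.39 in the knockout.

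PPARA is the nuclear receptor that turns on fatty acid oxidation in the fasted liver. Of 38 tested oxidation and PPARA target genes 0 passed by edgeR (DESeq2 called 6), 20 were higher and 1 lower at an unadjusted p below 0.05, and 10 higher and 1 lower had separated responses. Over the fits that each lacked 1 library, 9 (KO_Oil 11) to 27 (KO_CCL4 25) were higher, and without both E libraries 30 were. The median response was -0.46 in wild type and 0.49 in the knockout. Relative to WT_Oil the list stood at -0.76, -0.14 and -0.50 in WT_CCL4, -1.96 and -1.53 in KO_Oil and -1.30, -1.58 and -0.32 in KO_CCL4. KO_CCL4 15 lay within the WT_CCL4 range, while 24 and 25 stayed near KO_Oil. Without WT_CCL4 5 or without KO_CCL4 25, 3 of the 38 passed.

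Plin2, the coat protein of lipid droplets, had 955, 1149.6 and 1178 CPM after oil and 514, 855 and 760.4 CPM after CCl4 in wild type, and 178 and 246 CPM after oil and 452, 381 and 689 CPM after CCl4 in the knockout. KO_Oil was lowest, WT_Oil highest, and the CCl4 groups overlapped (interaction 1.88, SE 0.39; edgeR adjusted p = 0.0836). Ehhadh, the bifunctional peroxisomal enzyme, had 2269, 2098 and 3232 CPM after oil and 1017, 2299 and 984 CPM after CCl4 in wild type, and 196 and 304 CPM after oil and 351, 352 and 1331 CPM after CCl4 in the knockout, and 1 library, KO_CCL4 15, held most of the knockout response (interaction 2.26, SE 0.76; edgeR adjusted p = 0.218). The hormone gene Fgf21 had 0.431 and 0.136 CPM in KO_Oil and 17.8, 13.3 and 18.7 CPM in WT_Oil, with 0.967, 0.412 and 7.95 CPM in KO_CCL4 (edgeR adjusted p = 0.232). Ppara itself gave 0.24 (edgeR adjusted p = 0.716). Ucp2, an uncoupling protein gene also found in macrophages, was the lower member at -0.94 (edgeR adjusted p = 0.173), with WT_CCL4 above all other groups.

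Among 21 genes of gluconeogenesis and glucose handling, 5 were higher and 1 lower at an unadjusted p below 0.05. KO_Oil was farthest for 10 of the 21, against 33.8% of all tested genes. With 1 library left out, 3 to 9 (WT_CCL4 5, where 3 passed) were higher. G6pc, glucose-6-phosphatase, had 1078, 566 and 434 CPM after oil and 259, 748 and 293 CPM after CCl4 in wild type, and 84.4 and 48.2 CPM after oil and 344, 729 and 753 CPM after CCl4 in the knockout. Both KO_Oil libraries lay far below the other 9, and the interaction was 3.87 (SE 0.72; edgeR adjusted p = 0.0662). Igfbp1, a secreted protein of the fasted liver, showed the same low KO_Oil levels at 12.3 and 10.5 CPM against 271, 146 and 243 CPM in WT_Oil (interaction 2.32; edgeR adjusted p = 0.168).

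Heat shock genes encode chaperones under the control of HSF1. Of 21 tested, 0 passed by edgeR (DESeq2 called 4), 11 were higher and 0 lower at an unadjusted p below 0.05, and 5 had separated responses. When 1 library was left out, 6 (WT_CCL4 6 or KO_Oil 11) to 13 (WT_CCL4 5, where 2 passed) were higher, and without both E libraries 7 were. The median response was -0.46 in wild type and 0.21 in the knockout. Relative to WT_Oil the list stood at -0.71, -0.45 and -0.67 in WT_CCL4, -1.01 and -0.78 in KO_Oil and -0.46, -0.37 and -0.66 in KO_CCL4, so WT_Oil was the high group and KO_Oil the lowest. Hsph1, a large co-chaperone of the Hsp110 family, had 59.3, 54 and 46.9 CPM after oil and 19.2, 30 and 22 CPM after CCl4 in wild type, and 16.7 and 19.4 CPM after oil and 51.4, 35.7 and 22.9 CPM after CCl4 in the knockout. Its KO_CCL4 libraries spread from the WT_Oil range to the WT_CCL4 range (interaction 2.19, SE 0.39; edgeR adjusted p = 0.057). Hsp90aa1, the inducible Hsp90, gave 1.45 (SE 0.31; edgeR adjusted p = 0.0862). Hspa1b, the inducible Hsp70, had 62.2, 31.3 and 20.1 CPM after oil and 5.41, 28.1 and 9.61 CPM after CCl4 in wild type, and 1.0 and 1.09 CPM after oil and 11, 13.4 and 3.32 CPM after CCl4 in the knockout and a wide SE of 1.14 around 4.54 (edgeR adjusted p = 0.127), and its near-identical copy Hspa1a can share its reads.

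The Hsph1 window shows the letters that HSF1 recognises. Capitals mark 3 matches of GAANNTTC or TTCNNGAA, 2 of which overlap each other (RefSeq, GRCm38.p6, chr5:149636287-149636586, minus strand).
Hsph1: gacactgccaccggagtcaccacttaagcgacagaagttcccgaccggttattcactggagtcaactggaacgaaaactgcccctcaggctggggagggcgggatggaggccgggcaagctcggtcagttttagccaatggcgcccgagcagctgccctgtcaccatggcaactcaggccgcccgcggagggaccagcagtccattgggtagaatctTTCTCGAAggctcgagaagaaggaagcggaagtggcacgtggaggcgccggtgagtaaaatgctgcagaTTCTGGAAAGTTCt
GAANNTTC was found in 52.2% of 23 windows of 17 matched heat shock genes against 7.86% of all windows, and TTCNNGAA in 26.1% against 8.52%, both strands searched.

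Antioxidant genes under NRF2 were lower in the knockout response in 8 of 21 tested, and 1 was higher, at an unadjusted p below 0.05, and 0 passed by edgeR (DESeq2 called 3). In fits without 1 library, 6 to 8 were lower, and 2 passed without WT_CCL4 5. Gstm1, a glutathione transferase of a family of like genes, had 938, 987 and 838 CPM after oil and 1524, 1845 and 1852 CPM after CCl4 in wild type, and 1868 and 1749.8 CPM after oil and 1637, 1192 and 1055 CPM after CCl4 in the knockout. WT_Oil was the low group, and KO_CCL4 lay below KO_Oil (interaction -1.40, SE 0.29; edgeR adjusted p = 0.0856). Of 24 tested immediate early genes 8 were lower and 1 higher at that p, and with 1 library left out 1 (KO_Oil 12) to 8 were lower and 0 to 3 (KO_CCL4 15) higher. Egr1, an early growth response factor, had 10.4, 8.99 and 14.1 CPM after oil and 88.1, 104 and 41.9 CPM after CCl4 in wild type, and 3.59 and 6.12 CPM after oil and 8.32, 12.5 and 4.12 CPM after CCl4 in the knockout, with all WT_CCL4 libraries, including 5, above the rest (interaction -2.02; edgeR adjusted p = 0.193).

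Some groups gave medians near that of all genes, which does not show that their responses were equal. Nuclear-encoded respiratory chain genes had 0 of 24 at an unadjusted p below 0.05 and a median interaction of 0.10, and secreted and identity genes of hepatocytes had 0 of 11 and -0.12. The 8 tested high-mobility group genes had a median interaction of -0.37, farther from that of all genes, with 0 at an unadjusted p below 0.05. Hmgb2 itself gave -1.67 (SE 1.02; edgeR adjusted p = 0.514), but its reads in KO_Oil lie in KO_Oil 12 alone, and without that library the sign turned. The interactions of Hmgb1 and Hmgb3 also turned sign under an alternative. Hmgb1 gave -0.18 (SE 0.34; edgeR adjusted p = 0.866) and Hmgb3 gave 0.12 (SE 0.33; edgeR adjusted p = 0.916). Outside these groups, Cyp7a1, the rate-limiting enzyme of bile acid synthesis, gave -1.27 (SE 0.64; edgeR adjusted p = 0.411). Afp, a fetal liver gene, gave -2.69 (SE 0.94; edgeR unadjusted p = 0.014, adjusted p = 0.233).

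Cholesterol synthesis had a median near 0 that rested on libraries of opposite direction. Of 28 tested genes 1, Hsd17b7, was higher at an unadjusted p below 0.05, and the median interaction was -0.02. Relative to WT_Oil the list stood at 0.54, 0.21 and 0.65 in WT_CCL4, 1.14 and 1.12 in KO_Oil and 1.47, 2.26 and 0.25 in KO_CCL4. KO_CCL4 24 and 25 lay above KO_Oil and KO_CCL4 15 in the wild-type range. Sqle, squalene epoxidase, had 48.9, 140.0 and 14.2 CPM in KO_CCL4 24, 25 and 15. With both libraries titled E left out, which leaves KO_CCL4 15 alone in its group, the median was -1.23.

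Markers of other tissues were also compared. In a list of 11 adipose and mesothelial genes, 6 were higher and 1 lower at an unadjusted p below 0.05, and with 1 library left out 3 (KO_Oil 12) to 8 (KO_Oil 11) were higher. Muc16, a mucin of the mesothelium that covers the liver, had 7.15, 12.1 and 4.68 CPM after oil and 11.4, 5.93 and 10.7 CPM after CCl4 in wild type, and 3.16 and 2.72 CPM after oil and 12.8, 12.8 and 13.7 CPM after CCl4 in the knockout. KO_Oil was its lowest group and KO_CCL4 its highest (interaction 1.93, SE 0.52; edgeR adjusted p = 0.151). Cidec, a lipid droplet gene of adipose tissue and fatty liver, had 60.4, 27.4 and 62.5 CPM after oil and 6.98, 19.4 and 9.98 CPM after CCl4 in wild type, and 2.73 and 3.67 CPM after oil and 4.45, 3.54 and 19.5 CPM after CCl4 in the knockout, so WT_Oil lay above all other libraries (interaction 3.55; edgeR adjusted p = 0.151). The summed level of the 11 genes was 136, 168 and 158 CPM in WT_Oil, 78.6, 72.3 and 79 CPM in WT_CCL4, 36.3 and 24.3 CPM in KO_Oil and 72.9, 57.7 and 91 CPM in KO_CCL4. The lowest sums were those of KO_Oil and the highest those of WT_Oil. Of 5 tested exocrine pancreas genes, Cpa1 had reads only in KO_CCL4 24 and 25, at 0.967, 1.32 and 0 CPM in KO_CCL4, and so did Pnlip, at 1.26, 1.40 and 0 CPM. Cel had 1.84, 1.40 and 0 CPM in KO_CCL4 and 0.188 CPM in WT_CCL4 6, and 0 elsewhere. Over the 5 genes, 0 were higher and 1 was lower at an unadjusted p below 0.05. Their summed level was highest in KO_Oil 11, at 15.6 CPM, with 8.29 CPM in KO_Oil 12 and 11.9, 13.8 and 6.84 CPM in KO_CCL4. The part of these tissues in the interactions above was not tested.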

How the data were processed

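RNA of whole mouse liver was sequenced as stranded total RNA libraries per the labels' protocols, while the design text speaks of capped RNA. The authors deposited raw counts per gene for 11 libraries, a pair counted once where it overlaps a gene by at least 1 base, per the file headers. The submitters' processing notes name Bowtie, DESeq2 and mm10, and versions and the use of strand in counting are not given in the sources used here. File starts count from 0 and are given here from 1 (17285 of 19139 equal the GENCODE start after that shift). The deposited table's gene identifiers, symbols, coordinates and strands were used for names, loci and overlaps. Its bases per gene entered no fit, and its remaining columns were not used. The offset took GC content and length from the longest GENCODE transcript of each gene. A further 26 genes, set apart by the authors for very high counts, were not analysed here.

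Of 19207 genes 16866 were tested and 2341 removed by edgeR's filterByExpr (minimum count 10, minimum total 15). Blank symbols stood in 2096 genes, of which 2069 were named from the reference. One model with 4 group means was fitted with edgeR 4.0.16 in R 4.3.3 (TMM, quasi-likelihood), the interaction was tested as a contrast, and p-values were adjusted by Benjamini-Hochberg over all 16866 genes. It was tested on simulated data without shifts shared by the genes of a library, so such shifts are not covered. DESeq2 1.42.0, limma 3.58.1 and other scalings, filters and libraries were tried as alternatives. Genotypes, treatments and numbers were taken from the labels, and no block was fitted because the groups share no replicate numbers.

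The members and the 42 gene lists (864 symbols, 774 tested) were chosen with earlier results of these data known, and so were the tests. Genes named are those fixed by name, up to 12 called in each direction with at least 1 CPM and separated responses (number-only models described with their locus), members of the lists, and the genes nearest to passing. Descriptions by unadjusted p and by separated responses, and the members chosen from each list to be named, were chosen after the data were seen. Reads of these named genes can be shared with an overlapping gene, since strand was not given: Abcb4, Abcg5, Abcg8, Afp, Arntl, Atf5, Axin2, Clec4g, Clock, Cry2, Ctsc, Dbp, Ehhadh, Gbp2, Hmgb1, Hnf4a, Hspa1a, Knstrn, Oat, Per3, Prc1, Rhbg, Slc1a2, Stab2, Stmn1, Timp1, Tk1, Ttr, Tubb4b, Ucp2, Wee1 and those described with their partners. Depth was 7306082 to 14116886 counts, and 0 counts allow up to 3, or 0.189 to 0.431 CPM. Results on some genes are not reported here.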

Additional observations from a re-analysis of the deposited data

Results flagged for a closer look

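For 17 genes the test of the difference between the genotypes' responses itself passed (edgeR's quasi-likelihood test with Benjamini-Hochberg adjustment). Higher in the knockout response were Tubb2a (interaction 2.77), 2010003K11Rik (2.54), Gm43359 (2.36), Gm43361 (2.33), Tlr12 (2.20), Insc (2.09), Mir8114 (2.08), Elovl5 (2.07), Teddm2 (2.04) and Inhbe (1.98). Lower were Ciart (-3.15), Usp2 (-3.05), Map2k6 (-2.72), Gm43109 (-2.54), Clec12a (-2.51), Vcam1 (-1.92) and Efhd2 (-1.36). Tlr12, Gm43361 and Tubb2a kept their call in 8 of the 11 fits that left out 1 library, the most of the 17, and lost it without WT_Oil 3, KO_Oil 11 or KO_Oil 12. Clec12a kept it in 3, the fewest.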

How the results depend on the processing

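No paired analysis was possible because the groups share no replicate numbers. With 1 library left out at a time, the number of genes that passed ran from 0 to 285 (17 on all libraries), with 0 to 112 higher and 0 to 173 lower, and a library left alone in its group took the spread of the other groups. List members that passed ran from 0 to 65 (6 on all libraries), and called genes with KO_Oil farthest from 0 to 73 (9 on all libraries). The numbers stayed within 1.5 times of these under the other scalings, without a filter, with a mean of at least 5 CPM, without the 50 most abundant and the mitochondrial genes and under limma-voom (14 to 20 genes). The genes that passed were not all the same. Of the 17, limma-voom kept 12 and the filter of at least 5 CPM kept 15. 2010003K11Rik, Insc, Gm43359, Clec12a and Gm43109 did not pass by limma-voom (limma-voom adjusted p = 0.0517, 0.0543, 0.0899, 0.0639 and 0.0543). DESeq2 called 372 genes, 178 higher and 194 lower, with 83 list members and 130 genes with KO_Oil farthest. Robust estimation gave 29, 17 and 12, with 18 genes with KO_Oil farthest. An offset for GC content and length gave 50, 31 and 19, with 14 list members and 23 with KO_Oil farthest. Of the 17 genes called on all libraries, the offset kept 16 and lost Vcam1. Without both libraries titled E, 257 genes passed, 131 higher and 126 lower, with 65 list members and 151 with KO_Oil farthest. The cause of these moves was not tested. Of 978 values of 47 named genes under the alternatives, 753 kept their direction and their side of the threshold, 107 crossed to pass, 107 no longer passed and 11 turned sign, none of these 11 past the threshold on either side. With 1 library left out, Hmgb2 ran from -2.63 to 3.77, the latter without KO_Oil 12, which leaves KO_Oil with no Hmgb2 read and makes it a fitted value that is no bound. Hmgb1 ran from -0.35 to 0.04 (without WT_Oil 1), Hmgb3 from -0.10 (without WT_Oil 3) to 0.25, Acta2 from -0.47 (without KO_Oil 11; -0.39 without KO_CCL4 25) to 1.99, Timp1 from -1.03 (without WT_Oil 2) to 1.38 and Gpnmb from -3.76 to 0.39 (without KO_Oil 11). Without both E libraries Hmgb1 gave 0.10, Acta2 -1.25 and Timp1 -0.75, and limma-voom gave -0.15 for Timp1. The shallow libraries, 2 in KO_Oil, limit genes of few reads.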

Other observations

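Genes of the endoplasmic reticulum stress and integrated stress lists were split. Of 27 tested, 6 were higher and 5 lower in the knockout response at an unadjusted p below 0.05, and 0 passed by edgeR (DESeq2 called 5). Creld2, an endoplasmic reticulum chaperone gene, had an interaction of 1.46 (edgeR adjusted p = 0.0887), the stress factor gene Atf5 1.54 (edgeR adjusted p = 0.0997) and Hspa5, the chaperone BiP, 1.07 (edgeR adjusted p = 0.166). The serine synthesis gene Phgdh had 0, 0.534 and 0.292 CPM after oil and 1.45, 0.872 and 1.41 CPM after CCl4 in wild type, and 0.861 and 1.77 CPM after oil and 0.193, 0.742 and 0.402 CPM after CCl4 in the knockout and an interaction of -3.52 (edgeR adjusted p = 0.161), and Psat1 of the same pathway had -2.66 (edgeR adjusted p = 0.266). The Phgdh levels rest on few reads, since 3 counts make 0.229 to 0.341 CPM in WT_Oil and 0.247 to 0.302 CPM in KO_CCL4. The size of the Phgdh interaction is therefore uncertain.

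Among 22 tested genes of bile acid synthesis and transport, the sterol transporter genes Abcg5 and Abcg8 had interactions of -0.98 and -0.76 (edgeR adjusted p = 0.0662 and 0.188), and the phospholipid transporter gene Abcb4 one of 1.33 (edgeR adjusted p = 0.175). Abcg5 had 63.7, 65.9 and 60.3 CPM after oil and 79, 71.2 and 85.3 CPM after CCl4 in wild type, and 106 and 114 CPM after oil and 72.5, 67.6 and 66.3 CPM after CCl4 in the knockout. Of 24 tested genes known to be higher in male mouse liver 4 were higher and 2 lower at an unadjusted p below 0.05, with median responses of -2.68 in wild type and -1.72 in the knockout. Of 16 tested genes known to be higher in female liver 2 were higher and 2 lower. Of 22 tested periportal genes 1 was higher, G6pc, and 1 lower, Ctsc.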
